A study of Lolium arundinaceum with 18 samples.

Results

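The leaves of droughted tall fescue (Lolium arundinaceum) were compared with and without a foliar spray of silicon nanoparticles (Si NPs). The members of this comparison were 6 of the 18 leaf libraries of the study, chosen by their labels alone: 3 of the drought group DS, which served as reference, and 3 of the group DS_Si NPs. Both groups grew at 35 to 45% of field capacity, and DS_Si NPs plants also received Si NPs at 300 mg/L. The other groups used here included CK (well watered, 65 to 75% of field capacity) and Si NPs (well watered, 300 mg/L). They also included DS_CNCs (droughted, cellulose nanocrystals at 100 mg/L) and CNCs (well watered, cellulose nanocrystals at 100 mg/L). Each group had 3 libraries and was sampled on day 20. CNCs was not tested against another group here. Its libraries entered the fit of all 18 libraries and the plot of named unigenes in every library. The study sprayed leaves repeatedly and took medium-sized functional leaves of potted seedlings, with each treatment repeated 3 times. A surfactant (Tween-20) is named for the particle solutions, and no spray is named for DS, so the particles and their carrier cannot be told apart in this comparison. Whether the 3 libraries of a group came from separate pots is not stated, so the p-values measure the spread between these libraries.

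Silica is taken up by grasses and laid down in the walls of epidermal cells, and it is known as a beneficial element for grasses short of water. A droughted leaf closes its stomata, lowers the expression of light-harvesting antenna proteins, and makes chaperones, LEA proteins and detoxifying enzymes that protect its proteins and membranes. Its growth depends on expansins, wall proteins that let cell walls yield to turgor, and on gibberellins, hormones that promote elongation.

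Abundance is given in TPM (transcript abundance scaled for transcript length and to a common total per library), and differences as log2 fold changes of DS_Si NPs against DS with their standard errors (SE). A unigene, the longest transcript of an assembled cluster, was called higher or lower when the adjusted p of edgeR's quasi-likelihood test was below 0.05 and the log2 fold change exceeded 2 in size. Summed estimated counts were 18153554 to 20908897 in DS and 16523554 to 23076268 in DS_Si NPs. Leaf marker unigenes, mostly antenna and Rubisco proteins, summed to 5.91 to 12.9% of all TPM in the 6 libraries, against at most 0.0194% for root markers and 0.0486% for flower and seed markers. The material therefore had the transcripts of green leaf. On the first principal axis (25.8% of the variance) DS libraries lay at -176.8, -201.5 and -101.7 and DS_Si NPs libraries at -9.3, 206.5 and 120.8, so the groups did not overlap there, and DS_Si NPs 1 lay nearest to DS. The library CK 3, outside the comparison but part of the shared fit, lay between CK 1 and CK 2 in 100% of the 628 unigenes on which those libraries were more than 8-fold apart. The same share was 53.4 to 79.1% for each library of the other groups and 0% for CK 1 and CK 2. The library labelled CK 3 may thus be a mixture of the other CK libraries and no separate sample, and results that rest on it are also given without it. For some unigenes that the study lists by symbol, its supplement prints other mean TPM in DS or DS_Si NPs than the deposited table, with the same identifier. These are atpB, Cytb559, PSBR, CAB-M9, CAB1, DHAR2, APX1, GST3, SOD1, PRP and LSI2. The values given here are those of the deposited table, and which source is right could not be settled.

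Of 55979 tested unigenes, 1311 were called higher in DS_Si NPs (2.34%) and 584 lower (1.04%), 1895 in all (3.39%). Without the fold limit 3400 (6.07%) had an adjusted p below 0.05. The median log2 fold change of all tested unigenes was 0.14, or 0.11 with DESeq2's scaling (RLE), and values of single unigenes are read against that shift. Unigenes higher in DS_Si NPs were rare in DS, with a median of 0.293 TPM there and 5.01 TPM in DS_Si NPs, and 265 of the 1311 had no count in any DS library. Unigenes lower in DS_Si NPs went from a median of 9.27 TPM to 0.753 TPM, and 60 of the 584 had no count in any DS_Si NPs library. The libraries of the groups did not overlap for 94.5% of the higher and 96.9% of the lower unigenes, against 24.9% of those tested. Where it is given below for a called unigene, non-overlap is therefore a description and no added support. A description was lacking for 63.2% of the higher and 37.8% of the lower unigenes, against 47.0% of those tested. As a share of all counts, undescribed unigenes took 6.59, 6.57 and 8.96% in DS and 7.98, 7.55 and 8.66% in DS_Si NPs, and the groups overlapped (exact two-sided permutation test, p = 0.5, the smallest possible being 0.1).

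**Figure D1:**
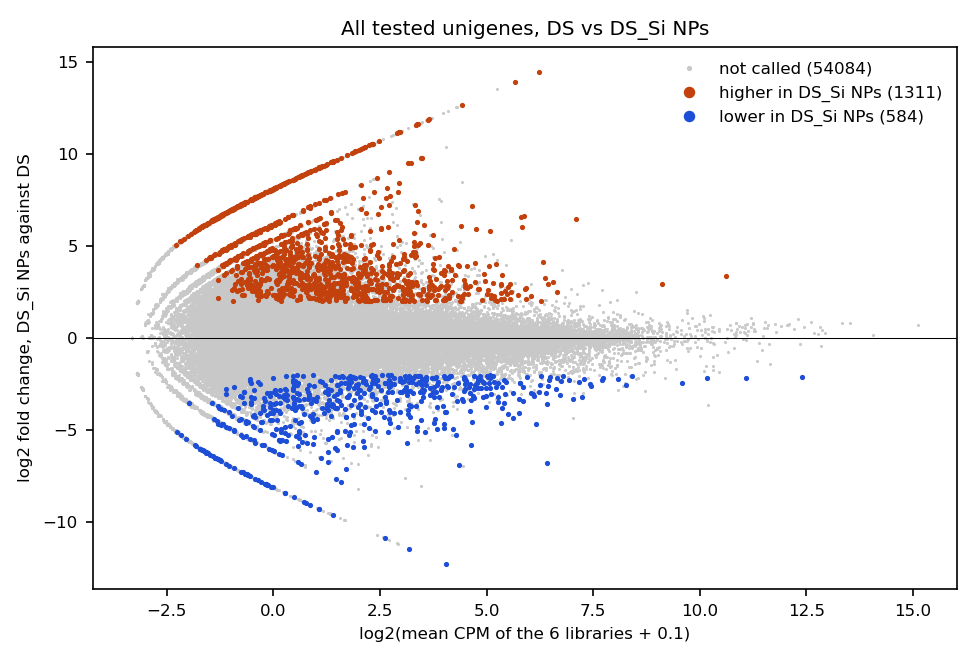
Each point is 1 of the 55979 tested unigenes, with its mean level in the 6 libraries (log2 of CPM + 0.1, counts scaled to library size) on the x axis and its log2 fold change in DS_Si NPs against DS on the y axis. Coloured points are the 1311 unigenes called higher and the 584 called lower. The bands far from 0 at low levels are unigenes without counts in one group, whose fitted fold change depends on the prior count.

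These calls rested on the spread estimated over all 18 libraries. With the 6 compared libraries alone in the fit, edgeR called 0 of 38472 unigenes (lowest adjusted p = 0.109), while 7020 (18.2%) had an unadjusted p below 0.05. Many calls were also lost when a single library was left out. Without DS 2 there were 97 higher and 47 lower unigenes. Without DS_Si NPs 2 there were 242 and 89, and without DS 1 there were 337 and 336. Without CK 3 the shared fit called 655 higher and 306 lower. These fits without 1 library also tested more unigenes, 62302 to 62913 against 55979 in the full fit. The fit without the 3 CK libraries tested 53688 and called 1031 higher and 373 lower. How far the losses go with the changed set of tested unigenes, rather than with the library left out, was not tested. A set of 102 unigenes (5.38% of the calls), 69 higher and 33 lower, was called whichever of the 6 libraries was left out, and all 102 were also called without CK 3.

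By a fixed rule, the 12 higher and 12 lower unigenes with the lowest adjusted p are described here, provided that they averaged 20 TPM or more in DS or DS_Si NPs, whichever was higher. Callose synthase 3, which makes the beta-1,3-glucan of plasmodesmata and new cell plates (DN89480_c0_g1, a fragment of 520 bases), was at 0 TPM in all 3 DS libraries and at 18.7, 27.0 and 20.8 TPM in DS_Si NPs. It was thus absent from the counts of DS and present in every DS_Si NPs library, at least 177-fold higher against a floor of 3 counts over the group (adjusted p = 0.0013). Leaves sprayed with cellulose nanocrystals also held it, at 14.0, 22.0 and 32.8 TPM in DS_CNCs and 11.2, 5.55 and 12.6 TPM in CNCs. A fragment annotated as CRT-binding factor, a DREB1-type activator of cold and drought genes (DN112537_c0_g1, 239 bases), was likewise at 0 in DS. It reached 34.6, 60.1 and 19.0 TPM in DS_Si NPs, at least 53.3-fold higher (adjusted p = 0.0084).

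Expansins made up 3 of these 12 unigenes. Expansin DN9351_c0_g1 was at 1.89, 1.82 and 1.41 TPM in DS and at 33.5, 200.5 and 51.0 TPM in DS_Si NPs, a log2 fold change of 6.05 (SE 0.74, adjusted p = 0.0052). The DS libraries were nearly equal, DS_Si NPs 2 stood highest, and the groups did not overlap. Beta expansin B3 (DN10151_c0_g1) went from 6.52, 5.87 and 3.73 TPM to 61.1, 127 and 61.2 TPM (4.16, SE 0.64, adjusted p = 0.00946). Expansin-B7-like (DN10151_c0_g2), a sequence of the same cluster whose reads the counting may have divided with it, went from 12.2, 7.25 and 12.5 TPM to 93.6, 112 and 27.2 TPM (3.04, SE 0.49). All expansin values in DS_Si NPs lay above all those in DS.

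Laccase LAC5-4 (DN4416_c0_g1), of a family of copper oxidases that couple monolignols into lignin, was at 5.24, 4.70 and 4.92 TPM in DS and at 45.3, 45.3 and 16.2 TPM in DS_Si NPs (log2 2.94, SE 0.44, adjusted p = 0.00752). DS_Si NPs 3 was the lowest of the sprayed leaves and still above every DS library. NAD(P)H-quinone oxidoreductase subunit O (DN22044_c0_g2), a subunit of the chloroplast NDH complex of cyclic electron flow, went from 22.7, 14.6 and 13.2 TPM to 189, 419.7 and 404 TPM (3.72, SE 0.59, adjusted p = 0.01). Deoxyhypusine synthase (DN1919_c0_g1), which modifies the translation factor eIF5A, went from 18.0, 17.3 and 55.3 TPM to 197, 217 and 209 TPM (2.93, SE 0.46). For this unigene the sprayed libraries were almost equal and DS 3 was the highest of the reference.

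Lysine-specific histone demethylase 1A (DN4898_c0_g1), a chromatin enzyme, had 6.47, 6.29 and 7.28 TPM in DS and 34.6, 52.0 and 32.4 TPM in DS_Si NPs (log2 2.44, SE 0.30, adjusted p = 0.00284). A CCCH zinc finger protein of type 54 (DN119089_c0_g1) went from 1.87, 4.53 and 3.51 TPM to 32.0, 25.1 and 16.6 TPM (3.00, SE 0.39). All sprayed libraries lay above all DS libraries for both. The other 2 were isoleucine--tRNA ligase of organelles (DN4910_c1_g2, log2 2.18, SE 0.36) and a phosphatidylcholine:diacylglycerol cholinephosphotransferase of glycerolipid synthesis (DN10428_c0_g1, 2.14, SE 0.31). Of these 12 higher unigenes, 6 were called whichever library was left out: callose synthase 3, expansin DN9351_c0_g1, LAC5-4, the CRT-binding factor, the histone demethylase and the CCCH protein. Without DS 2, 5 of the others missed the threshold (adjusted p 0.0556 to 0.0637), and DN10428_c0_g1 fell under the fold limit without DS 3 (log2 1.94), DS_Si NPs 1 (1.99) or DS_Si NPs 2, which also ended the call of DN4910_c1_g2 (1.76 to 1.95 for both). Over all alternatives the adjusted p of the 12 ran from 2.61e-14 to 0.11.

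**Figure D2:**
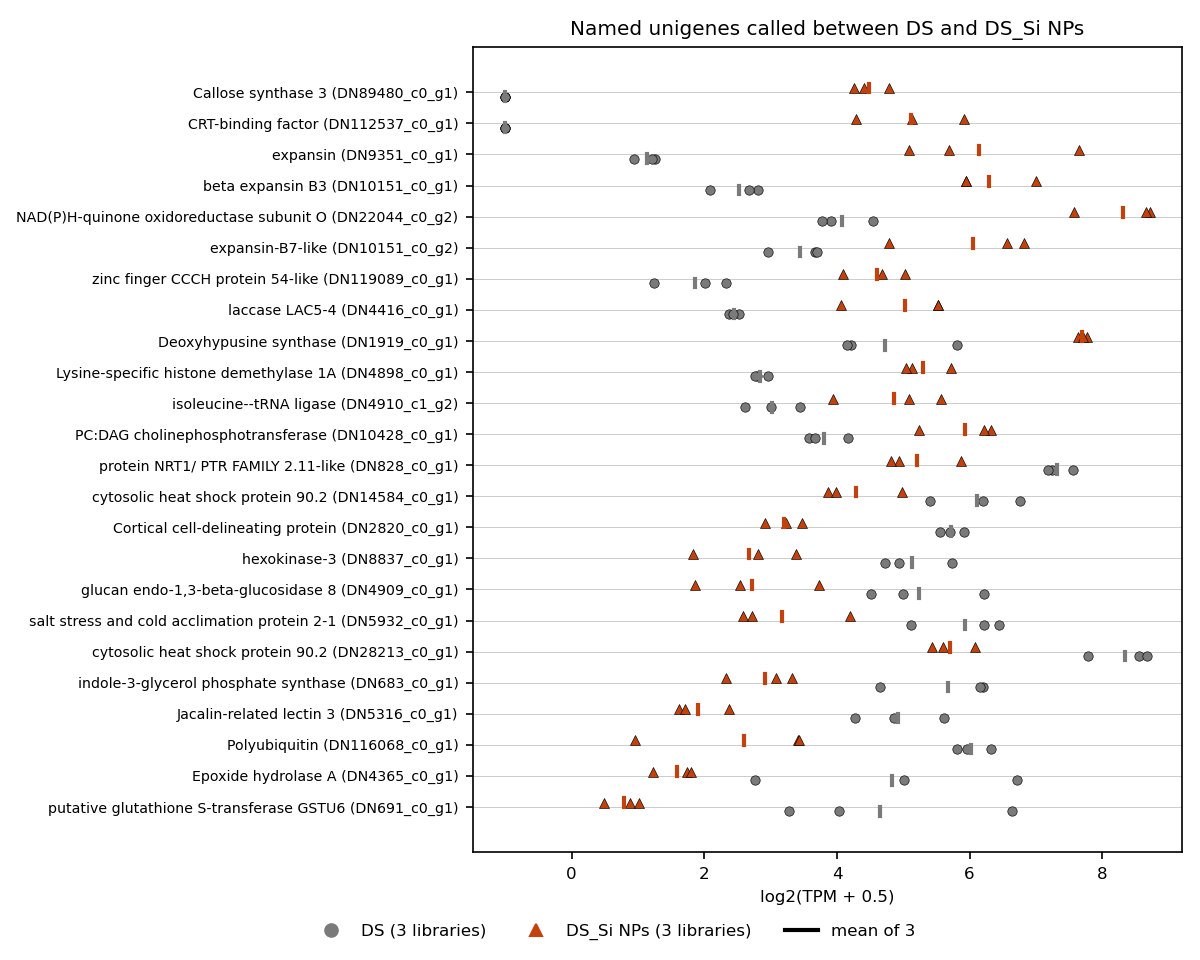
The 12 higher and 12 lower named unigenes, with log2(TPM + 0.5) in each of the 3 DS libraries (grey circles) and the 3 DS_Si NPs libraries (red triangles) and short bars for the means. The groups do not overlap for any of the 24 unigenes, which were selected by lowest adjusted p. The same holds for 94.5% of all higher and 96.9% of all lower calls. Callose synthase 3 and the CRT-binding factor lie at 0 TPM in all DS libraries.

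The 12 lower unigenes included chaperones, a detoxifying transferase and several proteins known from stressed leaves. Cytosolic HSP90.2 (heat shock protein 90, DN28213_c0_g1), a chaperone of kinases and receptors, was at 375, 408 and 219 TPM in DS and at 66.9, 47.7 and 42.8 TPM in DS_Si NPs (log2 -2.68, SE 0.42, adjusted p = 0.00822). A further HSP90.2 unigene (DN14584_c0_g1) went from 72.8, 108 and 41.6 TPM to 14.1, 15.4 and 31.1 TPM (-2.16, SE 0.39). Every sprayed library was below every DS library for both copies. Polyubiquitin (DN116068_c0_g1), the source of the tag for protein breakdown, went from 55.6, 79.2 and 61.5 TPM to 10.1, 1.43 and 10.3 TPM (-3.21, SE 0.56).

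Jacalin-related lectin 3 (DN5316_c0_g1), of a carbohydrate-binding family, had 48.3, 28.5 and 18.9 TPM in DS and 4.66, 2.58 and 2.77 TPM in DS_Si NPs (log2 -3.02, SE 0.39, adjusted p = 0.004). The chloroplast indole-3-glycerol phosphate synthase of tryptophan and indole synthesis (DN683_c0_g1) went from 73.2, 70.7 and 24.5 TPM to 7.98, 4.54 and 9.52 TPM (-2.95, SE 0.39, adjusted p = 0.00452). DS 3 was the lowest DS library for both, and still well above the sprayed leaves. Hexokinase-3 (DN8837_c0_g1), which phosphorylates hexoses, went from 25.9, 52.8 and 30.0 TPM to 6.52, 3.04 and 9.96 TPM (-2.42, SE 0.34).

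The NRT1/PTR FAMILY 2.11-like transporter (DN828_c0_g1) belongs to a family of nitrate and peptide carriers, and its Arabidopsis namesake carries glucosinolates. It had 151, 187 and 144 TPM in DS and 30.0, 27.6 and 58.1 TPM in DS_Si NPs (log2 -2.06, SE 0.29, adjusted p = 0.00554), with no overlap. Glutathione S-transferase GSTU6 (DN691_c0_g1) was uneven within DS, at 15.8, 99.5 and 9.19 TPM, and low throughout DS_Si NPs, at 1.35, 0.90 and 1.52 TPM (-4.94, SE 0.81). Epoxide hydrolase A (DN4365_c0_g1), an enzyme of lipid epoxides, showed the same unevenness, with 31.6, 104 and 6.28 TPM in DS and 2.83, 1.83 and 3.00 TPM in DS_Si NPs (-4.34, SE 0.71). DS 2 was by far the highest library for both.

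A cortical cell-delineating protein (DN2820_c0_g1, log2 -2.42, SE 0.39), an early salt stress and cold acclimation-induced protein (DN5932_c0_g1, -2.67, SE 0.45) and a glucan endo-1,3-beta-glucosidase 8 (DN4909_c0_g1, -2.64, SE 0.47) completed the 12. The lectin, the indole synthase, hexokinase-3, HSP90.2 DN28213_c0_g1 and the cortical protein were called whichever library was left out. Without DS 2, the other 7 were not called (adjusted p 0.0267 to 0.071, sizes of log2 from 1.75 to 3.03). Without DS_Si NPs 2, 4 of them were lost (adjusted p 0.0218 to 0.0563), namely DN828_c0_g1, DN4365_c0_g1, DN14584_c0_g1 and DN691_c0_g1, and DN828_c0_g1 also without DS_Si NPs 1 (log2 size 1.94, adjusted p = 0.0145). Over all alternatives the adjusted p of the 12 ran from 1.67e-10 to 0.149.

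Transcripts of the light-harvesting antenna, the chlorophyll a/b-binding proteins that feed both photosystems, were more abundant in sprayed leaves as a group. Summed over 72 unigenes they made up 41676, 53836 and 48439 TPM in DS and 89369, 57492 and 58924 TPM in DS_Si NPs, with no overlap and DS_Si NPs 1 far above the rest. Of the 65 tested members 61 had a log2 fold change above 0, with a median of 1.15 against 0.14 for all unigenes. Most did not pass the test: 3 were called higher (4.62%, against 2.34% of all tested unigenes) and none lower. All sprayed libraries lay above all DS libraries in 20 members (13.9% of all tested unigenes did so). The leaf markers, which include these antenna unigenes and Rubisco, likewise summed to 59111 to 75596 TPM in DS and 76066 to 129253 TPM in DS_Si NPs. In bulk RNA, more cells of a type and more RNA per cell cannot be told apart.

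The called members were copies of low to moderate abundance. CAB-M9 (DN41235_c0_g2, LHCII type 1) had 38.2, 55.3 and 40.6 TPM in DS and 551, 414 and 138 TPM in DS_Si NPs (log2 3.08, SE 0.50, adjusted p = 0.0104). It stayed called whichever of the 6 libraries was left out. Chlorophyll a-b binding protein 1 (DN126_c1_g1) went from 35.8, 122 and 40.6 TPM to 439.8, 128 and 154 TPM (2.03, SE 0.50) and chlorophyll a-b binding protein 2 (DN9467_c0_g1) from 28.6, 29.9 and 12.5 TPM to 181, 60.6 and 31.4 TPM (2.38, SE 0.64). The groups came close to each other for both, and DS_Si NPs 1 stood highest.

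The most abundant antenna unigenes did not separate the groups. DN9467_c1_g1 was at 4273, 6405 and 5232 TPM in DS and at 11844, 5540.4 and 7083 TPM in DS_Si NPs (log2 0.56, SE 0.32, adjusted p = 0.283), and the LHCII type II unigene DN2094_c0_g2 had a log2 fold change of 0.21 (SE 0.32, adjusted p = 0.716). CAB1 (DN34697_c0_g1) stood the other way, with 3715, 1794 and 3655 TPM in DS and 86.6, 8.99 and 380.1 TPM in DS_Si NPs (-4.32, SE 1.38, adjusted p = 0.104). All its sprayed libraries were below all DS libraries, but the spread within DS_Si NPs was wide and it was not called. CAB1 and CAB-M9 are among the unigenes for which the supplement of the study prints other TPM, so their values stand for the deposited table alone. Antenna copies are near-identical and the assembly had no genome, so reads may be divided among them and the level of a single copy is uncertain. The sum over the list depends less on that division. It is not free of it, because TPM is scaled for transcript length and copies without a matching description lie outside the list.

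Subunits of both photosystems, of cytochrome b6f and of the plastid ATP synthase summed to 39625, 43557 and 36354 TPM in DS and 57932, 56183 and 46441 TPM in DS_Si NPs, again without overlap. Of 71 tested members 52 were above 0, with a median of 0.48, and 1 was called in each direction (2.82%, against 3.39% of all tested unigenes). Ferredoxin--NADP reductase (DN20860_c0_g1), which hands photosynthetic electrons to NADP, rose from 0, 0 and 0.76 TPM to 1.59, 8.23 and 8.86 TPM (log2 3.85, SE 0.97, adjusted p = 0.0394). A psbP domain-containing protein (DN6064_c0_g1) fell from 29.6, 48.8 and 10.3 TPM to 9.01, 3.61 and 4.27 TPM (-2.64, SE 0.61, adjusted p = 0.0308). Some of the photosynthesis genes that the study names for well-watered leaves were not called in these droughted ones. The log2 fold change was 0.59 (SE 0.45) for atpB (DN45747_c0_g2), 1.28 (SE 0.58) for Cytb559 (DN52275_c0_g2) and -2.18 (SE 0.78) for PSBR (DN109843_c0_g1). Their adjusted p were 0.434, 0.186 and 0.111. The study reports PSBR as upregulated in watered leaves, whereas it was called lower in Si NPs than in CK here. Without CK 3 its log2 fold change in watered leaves was -3.92 and the call was lost (edgeR adjusted p = 0.189).

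Calvin cycle and Rubisco unigenes had a median of 0.51 over 32 tested members and none was called, and their summed TPM overlapped between the groups. Rubisco small subunit DN11010_c0_g1, of the enzyme that fixes CO2, was at 14526, 17344 and 9429 TPM in DS and at 26806, 24655 and 13843 TPM in DS_Si NPs (log2 0.72, SE 0.33, adjusted p = 0.188). The groups overlapped because DS_Si NPs 3 lay below DS 1 and DS 2. The 20 most abundant unigenes of each library took 14.6, 13.5 and 14.3% of counts in DS and 17.5, 21.4 and 14.0% in DS_Si NPs (exact two-sided permutation test, p = 0.3), and the part of that share in the lower sums of other lists was not tested. Of the 5 photosynthesis unigenes called, only CAB-M9 was kept in every removal. Without DS 1, DS 2 or DS_Si NPs 2 the other 4 were lost (adjusted p 0.0545 to 0.153), without DS 3 or DS_Si NPs 1 the antenna copies DN126_c1_g1 and DN9467_c0_g1 (0.102 to 0.179), without DS_Si NPs 3 the reductase and the psbP protein (0.0704 to 0.0707). Without CK 3 both antenna copies and the reductase were lost (0.0621 to 0.08), which left 1 antenna call. The adjusted p of the 5 ran from 2.2e-06 to 0.23 over all alternatives.

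**Figure D3:**
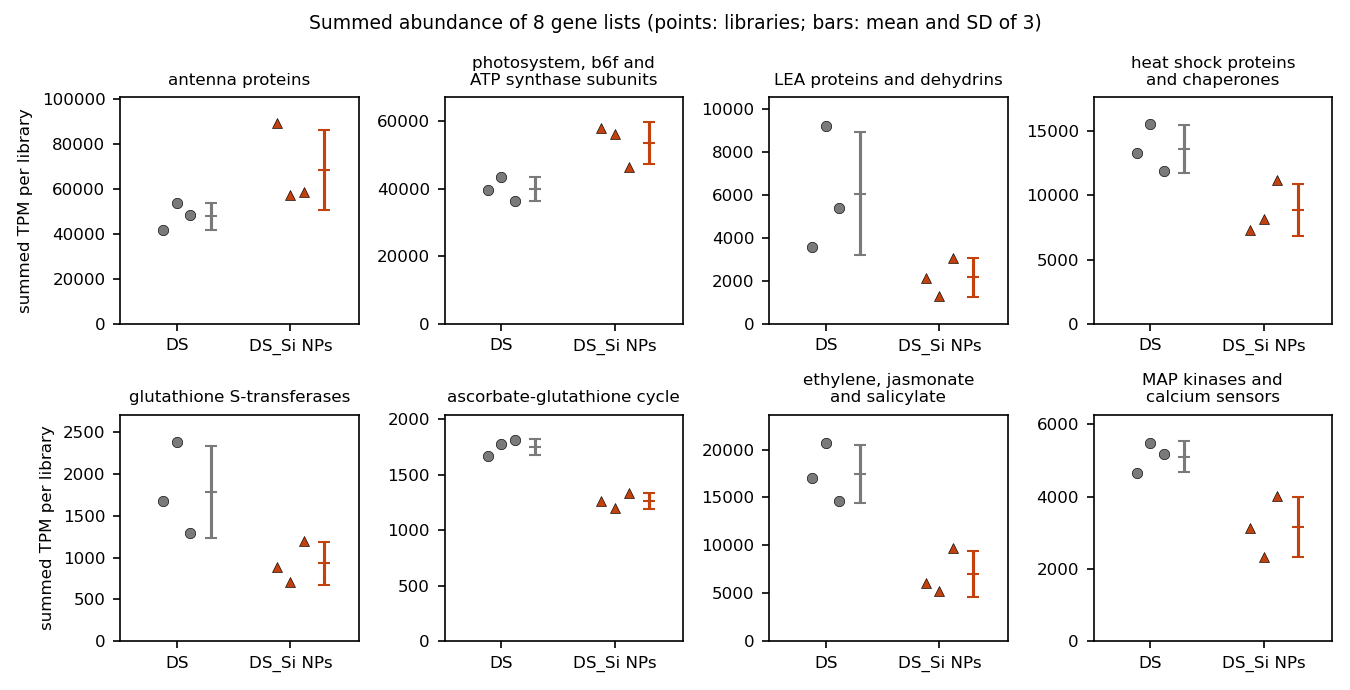
Summed TPM of 8 gene lists in each DS and DS_Si NPs library (points) with the mean and SD of 3 libraries, on axes that start at 0. Sprayed leaves lie above DS for antenna proteins and photosystem subunits and below it for the other lists shown, with no overlap, and LEA proteins spread widely within DS (3594 to 9201 TPM). The panels are a selection of lists without overlap. Sums of many other lists overlapped, among them Calvin cycle, NAC, WRKY, AP2/ERF and DREB, phenylpropanoid and wall genes. Reference genes, not shown, were also lower without overlap.

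Chlorophyll synthesis showed no call among 29 tested members (median 0.10). Protochlorophyllide reductase B (DN10977_c0_g1), the light-dependent step of synthesis, had 233, 160.3 and 157 TPM in DS and 329, 322 and 199.6 TPM in DS_Si NPs (log2 0.71, SE 0.20, adjusted p = 0.0459), which is under the fold limit, and DS_Si NPs 3 lay below DS 1. Among 23 tested genes of chlorophyll breakdown and senescence, 2 were called higher and 1 lower (13.0%, against 3.39% of all tested unigenes, median 0.69). STAY-GREEN 1a (DN9233_c0_g1), which takes magnesium out of chlorophyll, fell from 4.25, 4.67 and 2.72 TPM to 0.90, 0.35 and 1.36 TPM (-2.49, SE 0.53, adjusted p = 0.0227).

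Chlorophyllase-1 (DN7546_c0_g1) was the most abundant of the list, at 304, 525 and 794 TPM in DS and 154, 95.9 and 301 TPM in DS_Si NPs. It lay lower in every sprayed library but was not called (log2 -1.49, SE 0.49, adjusted p = 0.0812). The higher members were a cysteine protease of senescing leaves, SAG39-like (DN8170_c0_g1), from 1.44, 1.33 and 0.34 TPM to 23.3, 3.93 and 13.5 TPM (3.76, SE 0.58, adjusted p = 0.0088), and a senescence-induced receptor kinase (DN13836_c0_g1), from 0.05, 0.05 and 0.11 TPM to 0.65, 2.02 and 0.96 TPM (3.98, SE 0.76, adjusted p = 0.016). The protease was called in each removal, while STAY-GREEN 1a and the kinase were lost without DS 1 (adjusted p 0.0563 to 0.0625), DS 2 (0.0861 to 0.0888) or DS_Si NPs 2 (0.0566 to 0.0757). The adjusted p of the 3 ran from 1.57e-07 to 0.174 over all alternatives.

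Of the 37 tested silicon transporters and aquaporins, 1 was called higher and 1 lower (5.41%, against 3.39% of all tested unigenes), with a median of 0.03 (-0.13 in TPM). The higher one was PIP2-7 (DN2790_c1_g1), a water channel of the plasma membrane, at 0.45, 1.41 and 0.95 TPM in DS and 9.24, 14.5 and 15.4 TPM in DS_Si NPs (log2 3.90, SE 0.61, adjusted p = 0.00901). All sprayed libraries were far above DS, although the channel was rare beside the main PIP aquaporins. The most abundant of those (DN916_c0_g1) was at 1146, 1125 and 1139 TPM in DS and at 957, 1028 and 953 TPM in DS_Si NPs (-0.06, SE 0.16, adjusted p = 0.848), so its sprayed libraries were lower in TPM and the fitted difference was close to 0. The lower member, Protein SIP5 (DN37332_c0_g1), fell from 1.81, 8.94 and 3.95 TPM to 0.49, 0.26 and 0.27 TPM (-3.20, SE 0.85), and its description does not name a channel. LSI2 (DN20900_c0_g1), annotated as a silicon transporter and known in rice as the efflux carrier of roots, was rare at 2.08, 3.57 and 0.50 TPM in DS and 0.58, 0 and 0.39 TPM in DS_Si NPs (-2.55, SE 1.01, adjusted p = 0.134), and the groups overlapped. For LSI2, too, the supplement of the study prints other TPM.

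Nitrate, ammonium and peptide transporters gave 4 higher and 2 lower calls among 156 tested members (3.85%, near the 3.39% of all tested unigenes, median 0.27). The higher ones included oligopeptide transporter 5 (DN67288_c0_g1), from 1.65, 0.58 and 0.39 TPM to 5.85, 4.22 and 4.69 TPM (log2 2.59, SE 0.50), and NRT1/PTR FAMILY 5.10 (DN17441_c0_g1), from 3.42, 1.35 and 2.59 TPM to 9.76, 13.7 and 5.32 TPM (2.34, SE 0.46). The abundant NRT1/PTR FAMILY 3.1 unigene (DN125464_c0_g1), of a family known for nitrite and gibberellin carriage in Arabidopsis, was at 89.4, 314 and 131 TPM in DS and 43.3, 8.37 and 69.4 TPM in DS_Si NPs without a call (-2.25, SE 0.70, adjusted p = 0.0747). Phosphate and potassium transporters gave 1 higher and 1 lower call among 54 (3.7%, near the 3.39% of all tested unigenes). An inward-rectifying potassium channel (DN17084_c0_g1) fell from 6.77, 7.73 and 4.61 TPM to 2.35, 1.45 and 3.65 TPM (-2.13, SE 0.45). High-affinity potassium transporter 9 (DN33150_c0_g1) was at 0 in DS and at 9.46, 2.76 and 38.3 TPM in DS_Si NPs, at least 19.5-fold higher (adjusted p = 0.0413).

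None of these 6 transport calls survived every removal, and all 6 were lost without DS 2 (adjusted p 0.0504 to 0.196). Without DS_Si NPs 2, 4 of them were lost (0.0636 to 0.137), and without DS 1 SIP5, the channel and transporter 9 (0.051 to 0.104). SIP5 and transporter 9 were lost without DS_Si NPs 3 (0.088 to 0.101), and transporter 9 without DS 3 (0.0845). SIP5 and transporter 9 were also lost without CK 3 (0.0667 to 0.0698). The adjusted p of the 6 ran from 3.61e-07 to 0.196 over all alternatives.

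Glutathione S-transferases, which couple glutathione to reactive compounds, were lower in sprayed leaves. They summed to 1673, 2379 and 1295 TPM in DS and 882, 704 and 1202 TPM in DS_Si NPs, with a median of -0.76. Of 71 tested members 6 were called lower (8.45%, against 1.04% of all tested unigenes) and none higher. Glutathione S-transferase 2 (DN2866_c0_g1) fell from 32.2, 20.9 and 57.2 TPM to 2.66, 1.35 and 0.19 TPM (log2 -4.62, SE 0.87, adjusted p = 0.018), and Glutathione S-transferase 3 (DN20898_c0_g1) from 83.2, 311 and 78.5 TPM to 10.6, 55.4 and 54.9 TPM (-2.32, SE 0.55, adjusted p = 0.0318). The groups did not overlap in either. The most abundant member (DN5720_c0_g1) was at 337, 611 and 227 TPM in DS and 143, 74.8 and 259 TPM in DS_Si NPs, with overlap and a log2 of -1.45 (SE 0.40, adjusted p = 0.0485). GST3 of the study (DN113464_c0_g1) had 4 counts in DS and 1 in DS_Si NPs, a ratio of 0.261 (95% counting interval 0.0053 to 2.64). The supplement of the study prints other TPM for that identifier, so no direction is read from these counts.

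The ascorbate-glutathione cycle, which removes hydrogen peroxide, summed to 1669, 1777 and 1811 TPM in DS and 1263, 1198 and 1337 TPM in DS_Si NPs. The groups did not overlap, and the median over 25 tested members was -0.32. The mean sum went from 1752 to 1266 TPM. That of reference genes such as actin and tubulin went from 15656 to 11683 TPM, also without overlap and with a median of -0.20. Whether the cycle fell more than the reference genes was not tested. APX1 (DN9236_c0_g1), a cytosolic ascorbate peroxidase, was at 174, 207 and 189 TPM in DS and 83.1, 112 and 104 TPM in DS_Si NPs (log2 -1.38, SE 0.36, adjusted p = 0.0394). Its groups did not overlap, and the change was under the fold limit. The cycle had 1 call (4.0%, near the 3.39% of all tested unigenes), DHAR2 (DN121132_c0_g1), a dehydroascorbate reductase. DHAR2 fell from 5.02, 23.8 and 43.8 TPM to 1.76, 0 and 0 TPM, a ratio of 0.0273 over 3 counts in DS_Si NPs (95% counting interval 0.00554 to 0.0817, adjusted p = 0.0416). Both APX1 and DHAR2 have other TPM in the supplement of the study, and their direction here holds for the deposited table alone.

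Of 31 catalases, superoxide dismutases and peroxiredoxins, 1 was called higher (3.23%, near the 3.39% of all tested unigenes, median -0.21). It was SOD1 (DN14776_c0_g1), at 0 in DS and at 1.82, 0.13 and 1.20 TPM in DS_Si NPs, at least 60.3-fold higher (adjusted p = 0.0486). SOD1 again has other TPM in the supplement of the study. CAT2 (DN51610_c0_g1) was at 4.83, 3.29 and 2.14 TPM in DS and 3.99, 2.05 and 83.0 TPM in DS_Si NPs, where DS_Si NPs 3 alone was high, and it was not called (log2 2.89, SE 1.42, adjusted p = 0.224). Without DS_Si NPs 3 its log2 fold change was -0.26. Class III peroxidases had 1 call of 59 (1.69%, below the 3.39% of all tested unigenes, median 0.07). That unigene (DN18598_c0_g1) is annotated as OVEREXPRESSOR OF CATIONIC PEROXIDASE 3, known in Arabidopsis as a defence regulator rather than a peroxidase. It went from 0, 1.09 and 0 TPM to 22.1, 33.2 and 18.3 TPM, with 1 count in DS and 67 in DS_Si NPs (ratio 70.0, 95% counting interval 12.1 to 2806).

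The 5 antioxidant calls described were all lost without DS 2 (adjusted p 0.0544 to 0.192) and all without DS_Si NPs 2 (0.0663 to 0.124). DHAR2, SOD1 and DN18598_c0_g1 were also lost without DS 1 (0.0512 to 0.119) or DS 3 (0.0602 to 0.0987), DHAR2 and SOD1 without DS_Si NPs 3 (0.0669 to 0.093), SOD1 and DN20898_c0_g1 without DS_Si NPs 1 (0.0578 to 0.0819). Without CK 3 the calls of DHAR2, SOD1 and DN20898_c0_g1 ended (0.0515 to 0.0757) and 3 of the 6 glutathione S-transferases stayed called. Their adjusted p ran from 7.9e-06 to 0.394 over all alternatives.

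LEA proteins and dehydrins, hydrophilic proteins that protect cell contents during drying, were lower in sprayed leaves. Their sum was 3594, 9201 and 5419 TPM in DS and 2156, 1275 and 3068 TPM in DS_Si NPs, so the groups did not overlap and DS 2 was highest. Of 35 tested members 4 were called lower (11.4%, against 1.04% of all tested unigenes) and none higher, and 27 were below 0 (median -0.95). Group 3 LEA (DN325_c0_g1) went from 437, 2517 and 839.6 TPM to 284, 261 and 254 TPM (log2 -2.46, SE 0.50, adjusted p = 0.019), and the desiccation-related protein DN3225_c1_g1 from 155, 339 and 330.4 TPM to 25.6, 10.9 and 40.1 TPM (-3.44, SE 0.70, adjusted p = 0.0218). LEA14-A (DN11006_c0_g1) was at 109, 266 and 211 TPM in DS and 43.2, 30.8 and 79.5 TPM in DS_Si NPs, under the fold limit (-1.87, SE 0.43, adjusted p = 0.027). LEA6-like (DN3518_c0_g1) was called lower at -3.50 (SE 0.80), although DS_Si NPs 3 at 29.9 TPM lay above DS 1 at 24.0 TPM.

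Betaine aldehyde dehydrogenase, which makes the osmolyte glycine betaine, showed the same order without a call. DN9537_c0_g1 was at 52.1, 76.2 and 92.9 TPM in DS and at 13.6, 21.5 and 24.9 TPM in DS_Si NPs, a separation without overlap (log2 -1.93, SE 0.29, adjusted p = 0.00644) that stayed just under the fold limit. Its list of 7 tested members had a median of -1.07 and no call. Sucrose, fructan, trehalose and raffinose enzymes gave 3 higher and 5 lower calls of 141 (5.67%, against 3.39% of all tested unigenes, median -0.17). Fructosyltransferases, the enzymes of the fructans that grasses store, moved both ways. DN34142_c0_g1 rose from 0, 0.83 and 1.28 TPM to 20.0, 24.8 and 11.1 TPM (log2 4.80, SE 1.19, adjusted p = 0.0354). A 6G-fructosyltransferase (DN31858_c0_g2) fell from 7.45, 11.9 and 3.51 TPM to 0 in all sprayed libraries, at least 29.4-fold lower (adjusted p = 0.0318), and fructosyltransferase2 (DN41850_c0_g1) fell from 111 counts to 3, a ratio of 0.0282 (95% counting interval 0.00574 to 0.0847). Fructan exohydrolase (DN981_c0_g1), which breaks fructans down, was at 54.5, 214 and 110.3 TPM in DS and 188, 206 and 465 TPM in DS_Si NPs without a call (1.17, SE 0.48, adjusted p = 0.147).

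All 6 dehydration calls named were lost without DS 2 (adjusted p 0.0873 to 0.178) and without DS_Si NPs 2 (0.0678 to 0.115). The 3 fructosyltransferases were also lost without DS 1 (0.0759 to 0.103) or, with LEA6-like, without DS_Si NPs 1 (0.0549 to 0.0734), DN34142_c0_g1 without DS 3 (0.0667) and the other fructosyltransferases without DS_Si NPs 3 (0.0581 to 0.0811). Without CK 3 the calls of LEA6-like and the 3 fructosyltransferases ended (0.0528 to 0.063), and 2 of the 4 LEA calls stayed. Over all alternatives the adjusted p of the 6 ran from 6e-05 to 0.195.

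Heat shock proteins and chaperones summed to 13308, 15573 and 11883 TPM in DS and 7284, 8174 and 11164 TPM in DS_Si NPs, without overlap. Of 318 tested members 13 were called lower and 3 higher (5.03%, against 3.39% of all tested unigenes, median -0.33). In 75 of the 318 all sprayed libraries lay below all DS libraries (11.0% of all tested unigenes did so). The most abundant, Heat shock cognate 70 kDa protein (DN9957_c0_g1), went from 680.4, 939 and 461 TPM to 116, 127 and 168 TPM (log2 -2.27, SE 0.46, adjusted p = 0.0188). Beside the HSP90.2 copies above, a DnaJ co-chaperone (DN17337_c0_g1) fell from 75.2, 122 and 125 TPM to 14.2, 12.8 and 57.2 TPM (-2.17, SE 0.40). HSP70 DN10941_c0_g1 (-1.67, SE 0.33, adjusted p = 0.0168) and heat shock protein 81-3 DN2054_c0_g1 (-1.26, SE 0.30, adjusted p = 0.03) stayed under the fold limit, and both were lower in every sprayed library.

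Heat stress transcription factors, a family that includes activators of those chaperones, had 1 call in 45 (2.22%, below the 3.39% of all tested unigenes, median -0.36). It was A-6b (DN116155_c0_g1, a fragment of 201 bases), at 0 in DS and at 9.88, 11.5 and 13.1 TPM in DS_Si NPs, at least 10.1-fold higher (adjusted p = 0.0299). The most abundant one, of class C (DN13592_c0_g1), was at 67.1, 198 and 185 TPM in DS and 45.6, 67.6 and 128 TPM in DS_Si NPs (log2 -0.84, SE 0.37, adjusted p = 0.172). DN9957_c0_g1, the DnaJ unigene and A-6b were lost without DS 2 (adjusted p 0.0702 to 0.109) or DS_Si NPs 2 (0.0567 to 0.0724), A-6b also without DS 1 (0.0777) or DS 3 (0.0629), and the DnaJ unigene without DS_Si NPs 1 (log2 size 1.90, adjusted p = 0.0325). Without CK 3, 9 of the 13 lower and 2 of the 3 higher chaperones were called. The adjusted p of those 3 unigenes ran from 3.65e-05 to 0.131 over all alternatives. Reference genes (actin, tubulin, ubiquitin and the like) also summed lower, at 14253, 17399 and 15315 TPM in DS and 10663, 11619 and 12768 TPM in DS_Si NPs. Their median was -0.20, with 1 call of 130 (0.769%), the polyubiquitin above.

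Transcription factor lists had medians below 0, and their shares of calls were 4.60% for NAC, 4.20% for AP2/ERF and DREB, 3.88% for MYB and 1.06% for WRKY factors, against 3.39% of all tested unigenes. NAC factors had a median of -0.71 over 87 tested members (1 higher, 3 lower), AP2/ERF and DREB factors -0.58 over 143 (3 and 3), WRKY factors -0.52 over 94 (0 and 1) and MYB factors -0.09 over 103 (2 and 2). The summed TPM of the NAC, AP2/ERF and DREB, and WRKY lists overlapped between the groups, and that of MYB factors did not. The WRKY call (DN4637_c0_g1) fell from 35.8, 8.40 and 25.4 TPM to 1.89, 2.63 and 1.36 TPM (log2 -3.75, SE 0.67, adjusted p = 0.0149). The most abundant WRKY, type 22-like (DN2596_c0_g1), was at 524, 280 and 403 TPM in DS and 87.0, 33.6 and 265 TPM in DS_Si NPs, lower in each sprayed library but too uneven to pass (-1.23, SE 0.86, adjusted p = 0.388).

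Among NAC factors, 78a (DN15636_c0_g1) fell from 7.69, 5.59 and 2.90 TPM to 0.81, 0.39 and 0.26 TPM (log2 -3.34, SE 0.73), 92 (DN36525_c0_g1) from 1.65, 2.43 and 0.85 TPM to 0.16, 0.03 and 0.22 TPM (-3.52, SE 0.80), and 21/22-like (DN9349_c1_g1) rose from 0.97, 1.12 and 0.98 TPM to 4.17, 1.77 and 25.2 TPM (3.32, SE 0.66). The lower NAC factors were uniformly rare in sprayed leaves, while DS_Si NPs 3 carried most of the rise of 21/22-like. ERF110 (DN24423_c0_g2) fell from 3.32, 16.4 and 2.93 TPM to 0.37, 0.16 and 0.55 TPM (-4.40, SE 0.79), and ERF003 (DN9275_c0_g1) rose from 0.10, 0.63 and 0.38 TPM to 2.57, 6.55 and 1.61 TPM (3.31, SE 0.63). DREB1B of the study (DN37211_c0_g1), annotated as a CRT-binding factor like the called fragment above, was at 0.25, 0.69 and 5.03 TPM in DS and 8.26, 31.7 and 16.4 TPM in DS_Si NPs, higher in every sprayed library without a call (3.43, SE 1.09, adjusted p = 0.085).

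Of the MYB calls, Hv33 (DN66211_c0_g1) fell from 3.14, 2.77 and 7.63 TPM to 1.12, 0.48 and 0.55 TPM (log2 -2.19, SE 0.54), and DN33561_c0_g1 rose from 1 count in DS to 66 in DS_Si NPs (ratio 69.0, 95% counting interval 12.0 to 2764). The other higher one (DN13442_c0_g1, 2.57, SE 0.52) is annotated as an L10-interacting MYB domain protein, known in Arabidopsis from virus defence. Of these 9 factors, 8 were lost without DS_Si NPs 2 (adjusted p 0.0548 to 0.108; NAC 21/22-like stayed) and 7 without DS 2 (0.0816 to 0.121; the WRKY factor and ERF003 stayed). Without DS 1, the 3 NAC factors, Hv33 and DN13442_c0_g1 were lost (0.0503 to 0.0711), without DS 3 Hv33 and DN33561_c0_g1 (0.0607 to 0.106), without DS_Si NPs 1 NAC 92 (0.0537), and without DS_Si NPs 3 NAC 78a, 21/22-like and Hv33 (0.045 to 0.083). Hv33 was also lost without CK 3 (0.0574). Their adjusted p ran from 6.01e-06 to 0.286 over all alternatives.

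Jasmonate proteins were the most abundant of the lower hormone genes. The list of ethylene, jasmonate and salicylate genes summed to 17052, 20688 and 14601 TPM in DS and 6064, 5274 and 9736 TPM in DS_Si NPs (median -0.51). Of 159 tested members 6 were called lower and 1 higher (4.4%, against 3.39% of all tested unigenes). A jasmonate-induced protein homolog (DN1429_c0_g1) went from 7197, 9554 and 6139 TPM to 1456, 1708 and 1677 TPM (log2 -2.13, SE 0.44, adjusted p = 0.0186), and the 23 kDa jasmonate-induced protein (DN526_c0_g1) from 1803, 2811 and 1661 TPM to 459.7, 565 and 304 TPM (-2.19, SE 0.46, adjusted p = 0.0217). Both were several times lower in every sprayed library, and together they made up much of the list sum in DS and of its fall. 12-oxophytodienoate reductase 1 (DN4251_c0_g1), named for a precursor of jasmonate, fell from 20.1, 57.4 and 20.8 TPM to 4.44, 2.73 and 3.34 TPM (-3.36, SE 0.59, adjusted p = 0.0139). The potassium channel DN17084_c0_g1, described above, is among the 6 through its description and is no hormone gene.

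Gibberellin metabolism gave 1 call in each direction among 37 members (5.41%, against 3.39% of all tested unigenes, median 0.16). The biosynthetic enzyme gibberellin 20-oxidase (DN7337_c0_g1) rose from 0.27, 0.22 and 0.61 TPM to 5.08, 7.37 and 4.63 TPM (log2 4.03, SE 0.53, adjusted p = 0.00468). Gibberellin 2-beta-dioxygenase (DN8351_c0_g1), which inactivates gibberellins, fell from 7.75, 6.68 and 8.41 TPM to 0.95, 1.28 and 2.44 TPM (-2.40, SE 0.56, adjusted p = 0.0293). Neither enzyme showed any overlap between the groups, and the oxidase was called in each removal. In DS_CNCs the oxidase was at 10.1, 13.3 and 6.19 TPM and the dioxygenase at 1.06, 0.72 and 1.69 TPM.

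Abscisic acid synthesis and signalling had a median of -0.47 over 132 tested members, of which 90 were below 0. Its 3 calls (2.27%, below the 3.39% of all tested unigenes) were nevertheless higher. All were rare protein phosphatases of type 2C, a family with both negative regulators of abscisic acid signalling and unrelated members. They were 2C 53 (DN63874_c0_g1, from 0 to 0.85, 8.23 and 10.4 TPM, at least 12.2-fold higher), 2C 7 (DN17963_c0_g1, log2 3.50, SE 0.82) and 2C 21 (DN29046_c0_g1, 4.41, SE 1.06). Auxin response genes had a median of 0.03 (-0.01 with RLE scaling) over 134, with 1.49% called. The calls were a pair of SAUR36-like unigenes, small auxin-induced proteins, that moved opposite ways: DN14388_c0_g1 rose from 1.01, 0.29 and 1.67 TPM to 4.31, 8.91 and 4.62 TPM (2.73, SE 0.52) and DN14004_c0_g1 fell from 5.23, 22.1 and 8.27 TPM to 1.51, 0.11 and 1.80 TPM (-3.52, SE 0.86). SAUR32-like of the study (DN7007_c0_g1) was not called (-0.57, SE 1.12, adjusted p = 0.784).

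Apart from gibberellin 20-oxidase, the other 9 hormone calls named were lost without DS 2 (adjusted p 0.0686 to 0.174) and without DS_Si NPs 2 (0.0522 to 0.109). The phosphatases, DN14004_c0_g1 and the 2-beta-dioxygenase were lost without DS 1 (0.0508 to 0.107), 2C 53 and 2C 7 without DS 3 (0.0552 to 0.0636), DN14004_c0_g1 and the dioxygenase without DS_Si NPs 1 (0.058 to 0.0682), and DN526_c0_g1, DN14004_c0_g1 and the phosphatases without DS_Si NPs 3 (0.055 to 0.0669). Without CK 3, DN14004_c0_g1, 2C 7 and 2C 21 were lost (0.0534 to 0.0608). Over all alternatives the adjusted p of the 10 ran from 7.26e-10 to 0.221.

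Cellulose, hemicellulose, expansin and pectin genes had more calls for their number than most lists described here, with 8 of 111 tested members higher and 2 lower (9.01%, against 3.39% of all unigenes, median 0.23). Expansin-A4 (DN38875_c0_g1) rose from 0.51, 0.47 and 0.28 TPM to 4.20, 13.1 and 2.94 TPM (log2 4.03, SE 0.61, adjusted p = 0.00855), beside the expansins above, and all its sprayed libraries were above DS. The abundant glucan synthase CslF3 (DN10375_c0_g1) was not called, at 73.3, 106 and 42.5 TPM in DS and 32.1, 8.02 and 37.7 TPM in DS_Si NPs (-1.49, SE 0.89, adjusted p = 0.317). Without CK 3 the list had 6 higher and 2 lower calls.

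Phenylpropanoid and lignin enzymes went the other way, with a median of -0.68 over 157 tested members, 3 higher and 5 lower (5.1%, against 3.39% of all tested unigenes). Their summed TPM overlapped between the groups. Cinnamoyl CoA reductase (DN730_c0_g4), the entry step to monolignols, fell from 27.5, 18.6 and 11.0 TPM to 4.83, 1.13 and 3.64 TPM (log2 -2.52, SE 0.47, adjusted p = 0.0146), and Dirigent protein 19 (DN27231_c0_g1) fell from 70 counts to 1 (ratio 0.0149, 95% counting interval 0.000373 to 0.0859). LAC5-4, described above, was among the 3 higher ones. The study's CCR unigene (DN7634_c0_g1) was at 1.39, 1.27 and 3.17 TPM in DS and 2.03, 2.62 and 12.8 TPM in DS_Si NPs with overlap (1.52, SE 0.51, adjusted p = 0.086), and phenylalanine ammonia-lyase (DN9083_c0_g1), the first enzyme of the pathway, at 746, 149.6 and 509.8 TPM and 151, 51.8 and 355 TPM (-1.37, SE 0.56, adjusted p = 0.147).

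The list of beta-glucosidases gave 2 higher and 3 lower calls of 99 (5.05%, against 3.39% of all tested unigenes, median -0.06). Its words also match glucan endo-1,3-beta-glucosidases, so not every call in it is a beta-glucosidase. The endo-1,3-beta-glucosidase 5-like unigene DN12856_c1_g1, of a family that cuts callose, rose from 0.58, 0.57 and 0.62 TPM to 2.85, 4.65 and 2.51 TPM (log2 2.55, SE 0.31, adjusted p = 0.00284), with very even DS libraries. BGLU5-like of the study (DN16111_c0_g1) overlapped between groups and was not called (2.02, SE 1.06, adjusted p = 0.252). Cuticle, wax and lipid-transfer genes had 3 higher calls of 60 (5.0%, median 0.12), a lipid-transfer protein of low abundance (DN30282_c0_g1, 2.47, SE 0.56) and 2 glycolipid transfer proteins (DN473_c0_g1, 3.29, SE 0.62, and DN36701_c0_g1, 3.93, SE 0.94), the latter known from transport inside cells rather than from cuticle. Expansin-A4 and DN12856_c1_g1 were called in each removal. Without DS 2 the other 5 were lost (adjusted p 0.05 to 0.126), without DS_Si NPs 2 Dirigent protein 19, DN36701_c0_g1 and DN30282_c0_g1 (0.0567 to 0.0861), without DS 1 DN473_c0_g1 and DN30282_c0_g1 (0.0508 to 0.0711), and DN36701_c0_g1 also without DS 3 (0.0833), DS_Si NPs 3 (0.0699) or CK 3 (0.0595). Across the alternatives the adjusted p of the 7 ran from 8.96e-11 to 0.198.

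Among defence genes, 6.04% of pathogenesis-related proteins, 3.57% of NBS-LRR proteins and 4.67% of receptor kinases were called, against 3.39% of all tested unigenes, so the share of NBS-LRR proteins lay near that of all unigenes. Pathogenesis-related proteins, chitinases and thaumatins summed to 8864, 9665 and 16251 TPM in DS and 4205, 5977 and 7996 TPM in DS_Si NPs, while 5 of 149 tested members rose and 4 fell (median -0.19). Thionin BTH7 (DN867_c0_g1), an antimicrobial peptide, made up much of that sum, at 5296, 6141 and 12699 TPM in DS and 1395, 2347 and 3913 TPM in DS_Si NPs, without a call (log2 -1.43, SE 0.60, adjusted p = 0.154). Thaumatin-like protein 1b (DN13672_c0_g1) rose from 2.72, 2.15 and 2.25 TPM to 55.2, 31.0 and 7.26 TPM (3.70, SE 0.72, adjusted p = 0.0193), and PRP of the study (DN46192_c0_g1, a PR-1 type protein) from 2 counts to 96 (ratio 50.2, 95% counting interval 13.5 to 420.1, adjusted p = 0.0339), a unigene with other TPM in the supplement of the study.

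Disease resistance proteins of the NBS-LRR type, intracellular immune receptors, gave 11 higher and 6 lower calls of 476 (median -0.05). RGA1 (DN28797_c0_g1) fell from 3.29, 3.13 and 6.08 TPM to 1.15, 0.35 and 0.45 TPM (log2 -2.58, SE 0.39, adjusted p = 0.00724), and RGA2 (DN32163_c0_g1) rose from 0.09, 0.05 and 0.12 TPM to 1.24, 1.85 and 0.88 TPM (3.74, SE 0.70, adjusted p = 0.0133), as did RGA4 (DN17181_c0_g1, 2.93, SE 0.52). Receptor kinases of the wall and LRR type gave 11 higher and 15 lower of 557 (median -0.17). Wall-associated receptor kinase 1 (DN11890_c0_g1) rose from 1.08, 0.56 and 0.67 TPM to 3.19, 4.97 and 3.63 TPM (2.79, SE 0.39, adjusted p = 0.00528), and PERK4 (DN21829_c0_g1) from 3.57, 4.96 and 9.29 TPM to 49.5, 51.9 and 34.0 TPM (3.04, SE 0.54, adjusted p = 0.0133). ERECTA (DN1598_c0_g1), a receptor kinase of stomatal patterning and organ growth, went from 3.63, 2.27 and 2.15 TPM to 10.7, 16.7 and 4.97 TPM, at the fold limit (2.01, SE 0.36, adjusted p = 0.0124).

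MAP kinases and calcium sensors, which relay stress signals, summed to 4643, 5497 and 5185 TPM in DS and 3144, 2331 and 4007 TPM in DS_Si NPs without overlap (median -0.66). Of 248 tested members 5 were called lower and 1 higher (2.42%, below the 3.39% of all tested unigenes). A mitogen-activated protein kinase (DN10183_c0_g1) fell from 32.9, 140 and 40.1 TPM to 16.4, 5.78 and 17.4 TPM (log2 -2.47, SE 0.51), and calmodulin-2 (DN180_c0_g1) was at 318, 311 and 355 TPM in DS and 175, 148 and 256 TPM in DS_Si NPs, under the fold limit (-0.79, SE 0.18, adjusted p = 0.0257). RGA1 and wall-associated kinase 1 were called in each removal. Without DS 2 the other 7 defence calls named were lost (adjusted p 0.066 to 0.143), without DS_Si NPs 2 PRP, thaumatin-like 1b, ERECTA and DN10183_c0_g1 (0.0523 to 0.0938), without DS 1 PRP and thaumatin-like 1b (0.0528 to 0.0614), without DS 3 those and ERECTA (0.0266 to 0.0841), and ERECTA also without DS_Si NPs 1 (log2 1.96, adjusted p = 0.0209). Without CK 3, PRP and ERECTA were lost (0.0279 to 0.0541) and 1 of the 5 lower MAP kinase and calcium sensor calls stayed. Across the alternatives the adjusted p of the 9 ran from 8.89e-09 to 0.161.

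The shares of calls were 0.68% for cell division and histone genes and 0.641% for ribosomal proteins, below the 3.39% of all tested unigenes. They were 3.89% for retrotransposons and transposases, 3.77% for fungal, viral and arthropod proteins and 4.88% for flower and seed markers, near that share. Cell division and histone genes had 1 call in each direction among 294 (median 0.18), ribosomal proteins 2 higher of 312 (0.12), retrotransposons and transposases 6 higher and 1 lower of 180 (0.20), and fungal, viral and arthropod proteins 1 and 1 of 53 (0.13), which were a gag-pol polyprotein and a Ty2 Gag-Pol polyprotein, both words of retrotransposons. Their sums overlapped between the groups, as did those of root markers (79.45 to 194 TPM over the 6 libraries) and of flower and seed markers (452 to 486 TPM). Among 41 tested flower and seed markers 2 were called lower, pollen-specific protein SF21 (DN16919_c0_g1, log2 -2.31, SE 0.45, lost without DS 2 or DS_Si NPs 2 with an adjusted p of up to 0.0877) and AGL80 (DN30121_c0_g1, -3.92, SE 0.91, lost without each library but DS 3, up to 0.114).

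**Figure D4:**
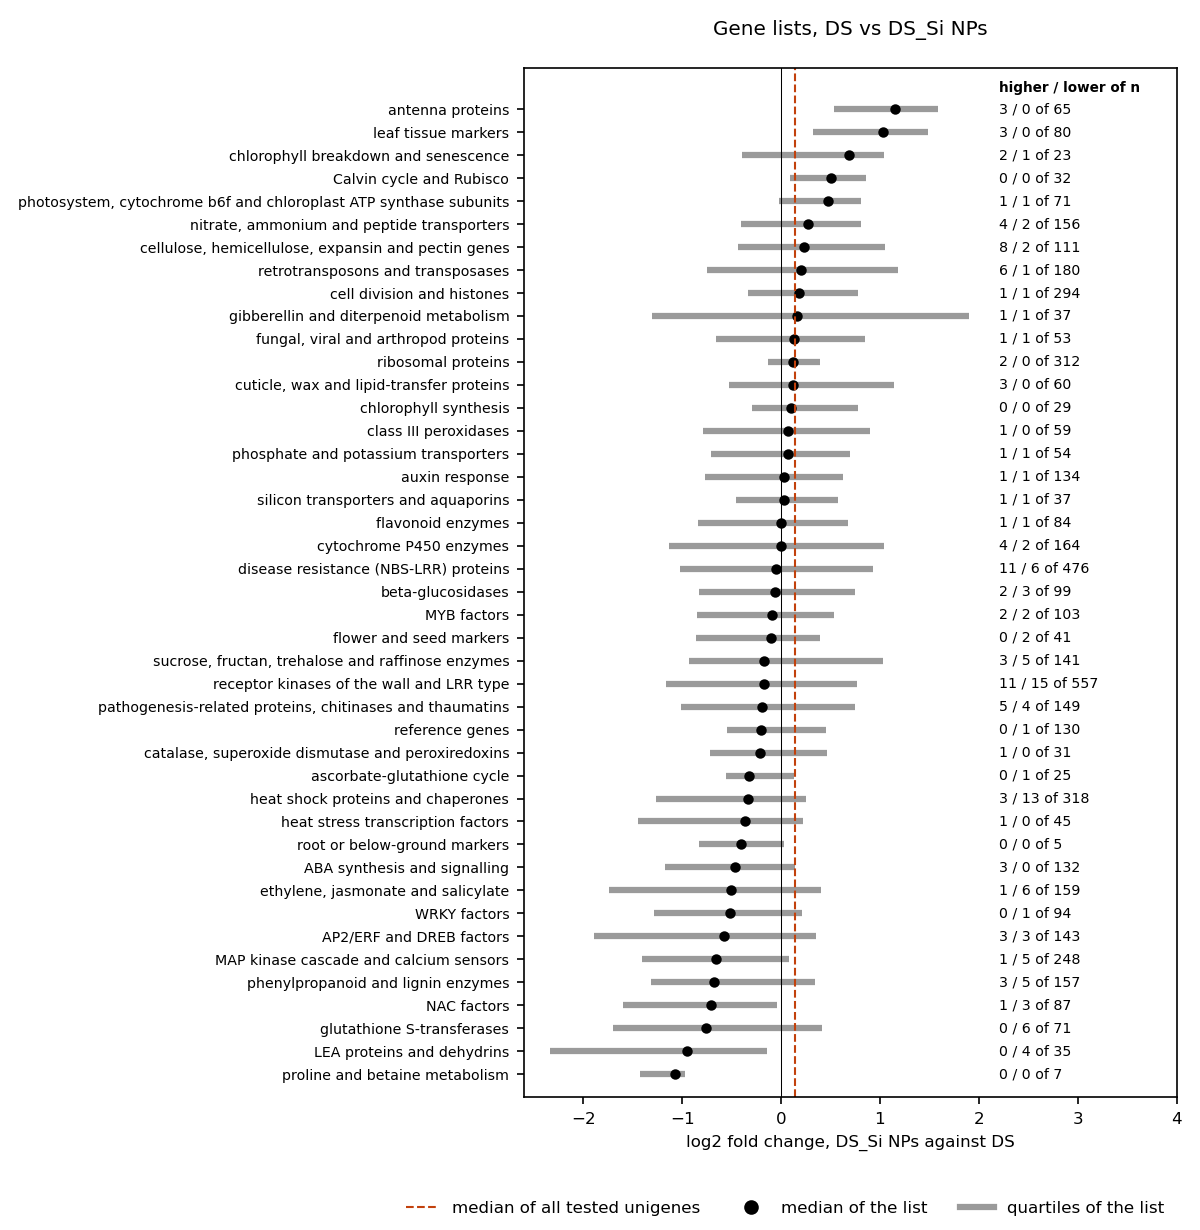
Median log2 fold change of each gene list in DS_Si NPs against DS (black points), with the middle range between quartiles (grey bars), the median of all tested unigenes at 0.14 (dashed line) and the number of members called higher and lower at right. Antenna proteins (1.15) and leaf markers (1.03) lie highest, and proline and betaine metabolism (-1.07) and LEA proteins (-0.95) lowest, while few members of any list were called.

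The same spray on well-watered leaves was read from CK against Si NPs, which shares no library with DS against DS_Si NPs. It had 474 higher (0.847%) and 100 lower unigenes (0.179%) of 55979 tested. Without CK 3, 3 were higher and 0 lower of 62744 tested. Without each of the other CK and Si NPs libraries there were 5 to 156 higher and 0 to 32 lower unigenes. Since the drought counts also fell, to 97 and 47 without DS 2, the counts of the water regimes are not ranked. Of the 1311 unigenes higher under drought, 190 were also called higher in watered leaves (14.5% of the drought calls and 40.1% of the watered ones), and the 1311 had a median log2 fold change of 2.14 there, with 88.7% above 0 against 53.0% of all unigenes. Without CK 3 that median was 2.15, with 88.6% above 0, while 1 of the 190 shared calls was left. The 1311 were rare in DS, with a median of 0.293 TPM against 2.84 TPM for all tested unigenes, and 265 had no count there. All tested unigenes are thus no matched baseline for them, and equally rare unigenes were not compared. Of the 584 lower unigenes, 10 were also called lower in watered leaves (1.71% of the drought calls and 10.0% of the watered ones), with a median of -0.49 there and 34.2% above 0 (-0.48, 33.6% and no shared call without CK 3). Callose synthase 3 was at 0, 0.10 and 0 TPM in CK and at 10.2, 27.0 and 9.02 TPM in Si NPs, and was called higher there too (edgeR adjusted p = 0.00352, or 0.046 without CK 3). Gibberellin 20-oxidase was at 1.85, 0.63 and 1.22 TPM in CK and at 6.12, 9.47 and 13.2 TPM in Si NPs (log2 3.22, SE 0.51, edgeR adjusted p = 0.0211), a call that was lost without CK 3 (0.148).

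The antenna list, in contrast, had a median of -0.16 in watered leaves with no call, and LEA proteins -0.26, so these medians lay nearer to 0 than under drought. Whether a change differed between water regimes was tested by the interaction, which called 147 unigenes (0.263% of those tested), 38 higher (0.0679%) and 109 lower (0.195%) under drought than in watered leaves. In 137 of them the changes had opposite directions, and in 104 the spray went with more transcript in watered leaves and less in droughted ones. PIP2-7 was at 14.1, 2.82 and 8.41 TPM in CK 1 to 3 and averaged 5.87 ± 2.65 in Si NPs, 0.937 ± 0.48 in DS and 13.0 ± 3.33 in DS_Si NPs (SD, n = 3, interaction 4.84, SE 0.84, edgeR adjusted p = 0.0343). LAC5-4 was at 40.6, 16.0 and 27.2 TPM in CK and at 17.6 ± 2.99, 4.95 ± 0.272 and 35.6 ± 16.8 TPM in the other groups in the same order (SD, n = 3, 3.45, SE 0.62, edgeR adjusted p = 0.0355). Both were low in DS, and neither interaction passed without CK 3 (4.88 and 3.47, edgeR adjusted p = 0.125 and 0.131).

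Of the 318 tested chaperones 8 had a lower and 0 a higher interaction call (0.195% of all unigenes were lower), and the median of the list in watered leaves was 0.09. HSP90.2 DN28213_c0_g1 was at 4.87, 7.20 and 5.94 TPM in CK and averaged 156 ± 34.3 in Si NPs, 334 ± 101 in DS and 52.5 ± 12.7 in DS_Si NPs (SD, n = 3, interaction -7.65, SE 0.62, edgeR adjusted p = 0.0004, or 0.00587 without CK 3). It was thus higher with the spray in watered leaves and lower with it in droughted ones, and Heat shock cognate 70 DN9957_c0_g1 had the same order, at 54.7, 81.7 and 83.3 TPM in CK and 294 ± 98.8, 693 ± 239 and 137 ± 27.1 TPM in the others (-4.50, SE 0.65, edgeR adjusted p = 0.0195, or 0.0896 without CK 3). Jacalin-related lectin 3 differed in another way, at 1.68, 0.87 and 1.57 TPM in CK and 1.65 ± 0.559, 31.9 ± 15.0 and 3.34 ± 1.15 TPM in the others (SD, n = 3, -3.50, SE 0.55, edgeR adjusted p = 0.0217, or 0.107 without CK 3), highest in DS among these 4 groups. Of 20 named unigenes with an interaction call, 4 were called and all 20 kept their direction without CK 3. The number of interaction calls changed when single libraries were left out. It was 8 without CK 3, Si NPs 1 or Si NPs 2, 16 without CK 1 or DS 2 and 25 without CK 2. It was 27 without Si NPs 3, 38 without DS_Si NPs 1, 57 without DS 1 and 354 without DS 3.

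**Figure D5:**
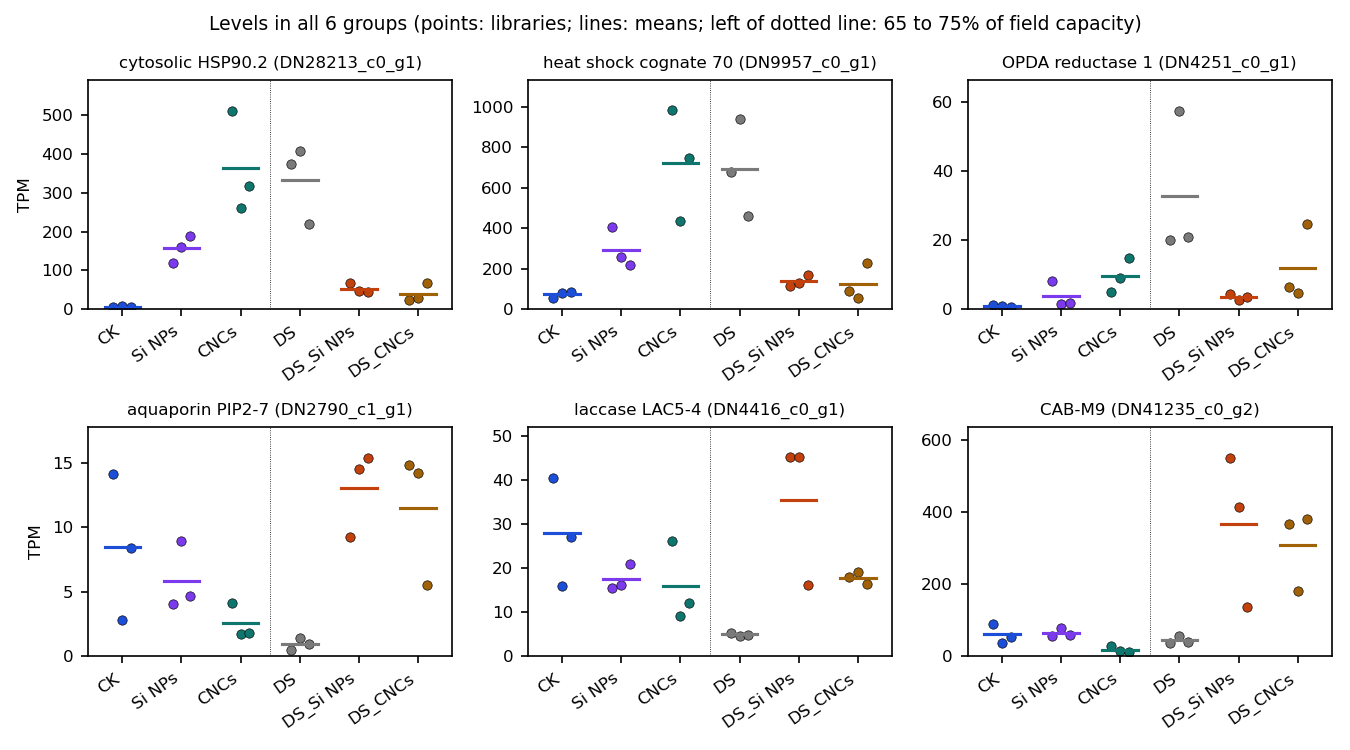
TPM of named unigenes in all 18 libraries (points, with lines at the group means), with the well-watered groups left of the dotted line and the droughted groups right of it. PIP2-7 and LAC5-4 have their lowest group means in DS (0.937 and 4.95 TPM), and HSP90.2 averages 6.00 TPM in CK, 334 TPM in DS and 52.5 TPM in DS_Si NPs.

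The 2 particles were sprayed at different doses, 300 mg/L for Si NPs and 100 mg/L for cellulose nanocrystals, so their droughted leaves are set side by side. Between DS_CNCs and DS_Si NPs edgeR's quasi-likelihood test called 0 of 55979 unigenes, with 5163 (9.22%) at an unadjusted p below 0.05, while edgeR's exact test called 149, DESeq2 449 and limma 59. CAB-M9 was at 309 ± 111 TPM in DS_CNCs and 368 ± 210.3 TPM in DS_Si NPs (SD, n = 3), a log2 difference of 0.39 with a 95% interval from -0.67 to 1.45. HSP90.2 DN28213_c0_g1 was at 39.1 ± 23.9 and 52.5 ± 12.7 TPM (0.53, interval -0.37 to 1.43), and PIP2-7 at 11.5 ± 5.21 and 13.0 ± 3.33 TPM (0.26, interval -0.98 to 1.50). Each of these intervals reaches past a 2-fold difference on the side of DS_Si NPs. LAC5-4 was at 17.9 ± 1.41 and 35.6 ± 16.8 TPM, with an interval from 0.25 to 2.12 and an edgeR adjusted p of 0.449.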

How the data were processed

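Poly(A) RNA of tall fescue leaves was sequenced as strand-specific libraries, 3 in each of 6 groups. The authors trimmed adapters and poor bases (Cutadapt, then a FastQC check), built a de novo assembly with Trinity, since no genome was used, took the longest transcript of each cluster as a unigene, annotated unigenes against the NCBI protein database with DIAMOND and quantified them with Salmon, whose estimated counts and TPM they deposited. The deposited estimated counts held 452055 values that were not whole, which were rounded. The table had 109684 unigenes, 42440 of them with a description.

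Counts of all 18 libraries, grouped by their labels, were scaled by TMM, filtered by filterByExpr and fitted with edgeR 4.0.16 (R 4.3.3, quasi-likelihood test, Benjamini-Hochberg adjustment, a log2 fold threshold of 2), so that the 6 groups shared one estimate of the spread. DS against DS_Si NPs, CK against Si NPs, DS_CNCs against DS_Si NPs and the interaction were tested two-sided in that fit. Alternatives were RLE scaling, no filter, a mean of at least 5 TPM, other fold thresholds, a replicate block, DESeq2 1.42.0, edgeR's exact test, limma 3.58.1 on log2(TPM + 0.5) or log2(TPM + 1), the compared libraries alone and each library left out. Fits of DS against DS_Si NPs without CK 3, without the 3 CK libraries and with 4 groups, and the comparison of CK with Si NPs with its alternatives, were added after seeing the data. The scripts were tested on simulated data. Where a group had no count, the fold was taken against 3 counts in that group as floor. Intervals of ratios are exact at 95% and cover counting error only.

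Unigenes named in the text are those of the study's gene list with the most abundant LEA14 unigene, the 12 higher and 12 lower calls with the lowest adjusted p among unigenes whose description names a product and whose mean reached 20 TPM in the group where it was higher, and, in each list, the 2 most abundant members and up to 3 called members with the lowest adjusted p, of which the text gives a selection. Up to 4 interaction calls in each direction followed the same rule. The comparison, the lists and the rule were chosen with earlier results of these data known, and lists matched words of the descriptions. Tall fescue is polyploid, and Salmon divides reads among near-identical copies, so single copies are less certain than sums.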

Additional observations from a re-analysis of the deposited data

Results flagged for a closer look

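The response to Si NPs differed between droughted and watered leaves, by the interaction term of edgeR's quasi-likelihood test, for 147 unigenes (38 higher and 109 lower under drought). The values below are log2 differences between the response under drought and that in watered leaves, each with an adjusted p below 0.05.

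Among wall and water-channel genes the interaction was 4.84 for PIP2-7 (DN2790_c1_g1), 3.45 for laccase LAC5-4 (DN4416_c0_g1), 2.67 for a glucan endo-1,3-beta-glucosidase (DN12856_c1_g1), 3.72 for a glucuronoxylan 4-O-methyltransferase (DN8296_c0_g1) and 6.45 for a mannan endo-1,4-beta-mannosidase (DN16663_c0_g1). Chloroplast fructose-bisphosphate aldolase DN55103_c0_g1 had 11.27, but it was at 3.12, 0 and 0 TPM in DS and at 34.2, 17.6 and 0 TPM in DS_Si NPs and was not called under drought (adjusted p = 0.102).

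Among chaperones it was -7.65 and -4.44 for the cytosolic HSP90.2 unigenes (DN28213_c0_g1 and DN14584_c0_g1), -4.50 for Heat shock cognate 70 (DN9957_c0_g1), -4.07 for HSP70 (DN10941_c0_g1) and -2.93 for heat shock protein 81-3 (DN2054_c0_g1). It was -7.51 for Glutathione S-transferase 2 (DN2866_c0_g1), -5.09 for 12-oxophytodienoate reductase 1 (DN4251_c0_g1), -4.82 for a WRKY factor (DN4637_c0_g1) and -4.04 for gibberellin 2-beta-dioxygenase (DN8351_c0_g1).

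Jacalin-related lectin 3 (DN5316_c0_g1) had -3.50, the early salt stress and cold acclimation-induced protein (DN5932_c0_g1) -3.46, the NRT1/PTR FAMILY 2.11-like transporter (DN828_c0_g1) -2.52, an inactive poly(ADP-ribose) polymerase (DN12084_c0_g1) -3.54 and an aspartic proteinase (DN4714_c2_g2) -5.13. Leaving out single libraries moved the count of 147 to between 8 (without CK 3, Si NPs 1 or Si NPs 2) and 354 (without DS 3). Of the 20 unigenes given here, all kept their direction without CK 3 and 4 were still called: both HSP90.2 unigenes, HSP70 (DN10941_c0_g1) and the mannosidase (DN16663_c0_g1).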

How the results depend on the processing

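For DS against DS_Si NPs the counts of higher and lower unigenes, 1311 and 584, became 604 and 304 with no filter on low counts, 3498 and 1788 with DESeq2, 2653 and 1290 with edgeR's exact test, 2082 and 1318 with no fold threshold, 1750 and 1033 with a log2 threshold of 1, 627 and 424 at a mean of at least 5 TPM, 1158 and 981 with limma on log2(TPM + 0.5), 769 and 716 on log2(TPM + 1), and 0 and 0 with the compared libraries alone. RLE scaling gave 1273 and 615, with 97.8% of the 1895 calls shared. Of the fits added after seeing the data, the one without CK 3 gave 655 and 306, without the 3 CK libraries 1031 and 373, and with 4 groups 380 and 111. Leaving out each compared library gave 97 to 1539 higher and 47 to 733 lower unigenes.

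Same-numbered DS and DS_Si NPs libraries did not deviate together (correlations of deviations 0.042, -0.081 and 0.045), and not every library correlated best with its own number. With the replicate number as a block there were 770 higher and 364 lower unigenes and 41 interaction calls, while DS_CNCs against DS_Si NPs stayed at 0 calls.

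The 147 interaction calls became 227 with a log2 threshold of 1, 235 with none, 80 with no filter, 1800 with DESeq2, 50 with the compared libraries alone, 27 with limma, and 8 to 354 with single libraries left out. DS_CNCs against DS_Si NPs had 0 calls, 449 with DESeq2, 149 with edgeR's exact test, 59 with limma and 0 to 2 with single libraries left out, the 2 being without DS_Si NPs 3.

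The 574 calls of CK against Si NPs, a comparison whose alternatives were chosen after seeing the data, became 187 with no filter, 147 with the replicate block, 1350 with limma on log2(TPM + 0.5) and 3 (without CK 3) to 188 (without Si NPs 1) with single libraries left out.

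Of 132 named unigenes, 91 were called. Over all alternatives their values kept direction and side of the threshold in 2088 cases, lost the call in 456, gained one in 36 and changed sign in 4. The sign changed for 3 unigenes, none of them called: CAT2 (DN51610_c0_g1) lay at -0.26 to 3.41 with single libraries left out, LHCII type II (DN2094_c0_g2) at -0.02 to 0.31 and the PIP aquaporin DN916_c0_g1 at -0.32 to 0.07. The cause of these shifts was not tested. With 3 libraries a group, unigenes at 0 in one group rest on few counts, and absence there means only that none were counted at these depths.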

Other observations

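Flavonoid enzymes and cytochrome P450 enzymes, which build pigments and many other small molecules, showed medians of 0.00 over 84 and 164 tested members, with 1 higher and 1 lower call among the former and 4 and 2 among the latter. These calls were 2.38% and 3.66% of the lists, against 3.39% of all tested unigenes. Both summed TPM ranges overlapped between DS and DS_Si NPs.

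Of the 102 calls that held whichever of the 6 libraries was left out, 31 had a named product, 17 higher and 14 lower, and 54 had no description. The following 4 were chosen after their values were seen. Phospholipid-transporting ATPase 8 (DN9479_c0_g1), a flippase of membranes, was at 5.44, 3.67 and 3.06 TPM in DS and 0.83, 0.58 and 0.88 TPM in DS_Si NPs (log2 -2.11, SE 0.22, edgeR adjusted p = 0.0013). Mannan endo-1,4-beta-mannosidase 1 (DN16663_c0_g1), which cuts wall mannans, was at 0.45, 0.13 and 0.23 TPM in DS and 5.73, 6.56 and 2.39 TPM in DS_Si NPs (4.19, SE 0.54, edgeR adjusted p = 0.00452). All sprayed libraries were on one side of all DS libraries for both.

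The inactive poly(ADP-ribose) polymerase SRO3 (DN12084_c0_g1) was at 8.37, 18.9 and 5.44 TPM in DS and 2.18, 1.06 and 1.26 TPM in DS_Si NPs (log2 -2.90, SE 0.46, edgeR adjusted p = 0.00901). A nepenthesin-like aspartic proteinase (DN4714_c2_g2) was nearly without transcript in sprayed leaves, at 5.10, 1.98 and 4.10 TPM in DS and 0.04, 0.14 and 0.09 TPM in DS_Si NPs (-4.65, SE 0.73, edgeR adjusted p = 0.00946). Over all alternatives the adjusted p of these 4 ran from 3.17e-17 to 0.116, the highest with the 6 compared libraries alone.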
